A study of Mus musculus with 12 samples.

Results

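Acyl-CoA thioesterases hydrolyse acyl-CoA esters to free fatty acids and coenzyme A, and so run against the acyl-CoA synthetases. The 10 genes described here, Acot1, Acot2, Acot3, Acot4, Acot5, Acot7, Acot8, Acot9, Acot12 and Acot13, were taken by symbol from a table of 21705 genes. Acot3 was selected on its lower values in LNA29-treated livers, and the others were chosen by belonging to the same enzyme families. For Acot3 the difference between the groups is therefore given as a description, with no test.

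The study compared livers of 6 saline-treated and 6 LNA29-treated mice, all female C57BL/6J mice of 10 to 12 weeks. LNA29 is a pair of locked nucleic acid inhibitors, 1 against miR-29a and 1 against miR-29b and miR-29c, each given into the tail vein at 20 mg/kg. The livers were collected on day 7 after a fast of 18 h, which both groups shared. No library of an unrelated locked nucleic acid was analysed here, so loss of miR-29 activity and a response to the injected inhibitors cannot be told apart.

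Mammalian thioesterases form 2 unrelated families. The type I enzymes are encoded in mouse by a cluster of close copies, Acot1 to Acot6, and their products work in the cytosol (Acot1), the mitochondrion (Acot2) and the peroxisome (Acot3, Acot4 and Acot5). The type II enzymes share the hotdog fold and lie on several chromosomes. In liver the type I genes are known as targets of PPAR-alpha that are induced by fasting, the state in which all of these livers were taken.

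The mature miR-29 sequences and the members' 3′ UTRs are given first because miR-29 pairs with sites in 3′ UTRs through its seed. The 3 forms, taken from RefSeq (GRCm38.p6), have the same seed, bases 2 to 8, shown in capitals.
mmu-miR-29a-3p: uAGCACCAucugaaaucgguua
mmu-miR-29b-3p: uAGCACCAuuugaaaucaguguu
mmu-miR-29c-3p: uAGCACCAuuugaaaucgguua
The complement of that seed, TGGTGCT, was searched on the sense strand in each gene's longest 3′ UTR (GENCODE M21, GRCm38). That UTR was the longest among the gene's coding transcripts, complete or not. Among the 10 members, the letters occurred in Acot5, once, from base 188 of its 263-base 3′ UTR, with the match in capitals.
Acot5: gtgacattgcTGGTGCTgttcccctga
They did not occur in the 1376-base 3′ UTR of Acot3 or in the 4805-base 3′ UTR of Acot4. Of 11095 tested genes with a 3′ UTR, 15.6% held a match.

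Reads on genes came to between 7696095 and 19062479 reads per liver, with a median of 12011973 reads in the saline group and 9123470 reads in the LNA29 group. A deposited value is the reads estimated for a gene, divided by the library's upper quartile and multiplied by 1000, so 1 read was worth between 9.8 and 24.4 units, and a gene without reads is listed at 1. Alb, which encodes serum albumin and is made by hepatocytes, took between 35.7% and 46.9% of the reads. The lowest share was in saline replicate 49, which also had the strongest trend of values with transcript length (Spearman's rho = 0.499 over 11111 genes), as set against the range of -0.298 to 0.278 in the other livers. Summed levels of hepatocyte, stellate cell, Kupffer cell, endothelial, bile duct and blood cell markers overlapped between the groups. The hepatocyte sum was mostly Alb and the blood cell sum mostly Hba-a2, so these overlaps say little about the other markers of those lists. None of the markers in the table was at 0 in every liver.

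Within the fasted liver the thioesterases spanned a wide range of levels. To compare genes with each other, values were divided by the length of the longest complete transcript in kilobases. In saline-treated livers the order of these levels ran from Acot1 (2544 ± 600.2 per kb, SD, n = 6) and Acot2 (2452 ± 704) through Acot13 (1904 ± 551), Acot8 (1223 ± 345), Acot3 (960.3 ± 222), Acot12 (670.4 ± 136) and Acot7 (482 ± 79.9) to Acot4 (145 ± 28.0). The ranges over livers of all neighbours in this order overlapped except those of Acot7 and Acot4. In LNA29-treated livers the level of Acot3 was 390.3 ± 119 per kb (n = 6), and it moved from position 5 to position 7. Acot3 has 3 complete transcripts, and with the shortest, of 1545 bases in place of 3431, its saline level was 2133 per kb, at position 3. With shortest transcripts the LNA29 level of Acot3 was 867 per kb, between those of Acot8 (1132) and Acot12 (756). Its positions in both groups thus depend on the transcript used.

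Acot5 and Acot9 were close to silent. Acot5, a peroxisomal medium-chain thioesterase, had no read in any saline-treated liver and 1 read in 1 of 6 LNA29-treated livers. Acot9, a mitochondrial enzyme, had between 0 and 3 reads in every liver. Neither gene rose above the floor of 3 reads, and no fold change is given for them. Of the 10 members, 9 passed the filter on low values (a mean of at least 10), and 8 were above the floor.

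Acot3, which encodes a peroxisomal thioesterase for medium- and long-chain acyl-CoAs, was lower in every LNA29-treated liver than in any saline-treated liver. Its value in the saline-treated livers had a lowest of 2284, a median of 3298 and a highest of 4272. In the LNA29-treated livers it had a lowest of 929.2, a median of 1276 and a highest of 1925. The groups did not overlap. The mean of 3295 ± 763.1 in the saline group compared with 1339 ± 406.6 in the LNA29 group (SD, n = 6 each). On the log2(value + 1) scale this was a fold change of -1.32 (SE 0.20), or 0.401 of the saline level. Between 180 and 398 reads per liver stood behind the saline values and between 49 and 113 behind the LNA29 values. Over the 12486 genes tested, 0.985% had no overlap between the groups (0.713% with every LNA29-treated liver lower) and 0.160% had an adjusted p under 0.05 by limma (0.0881% lower). The RNA came from whole liver, where fewer cells of a type and less RNA per cell cannot be told apart.

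**Figure D1:**
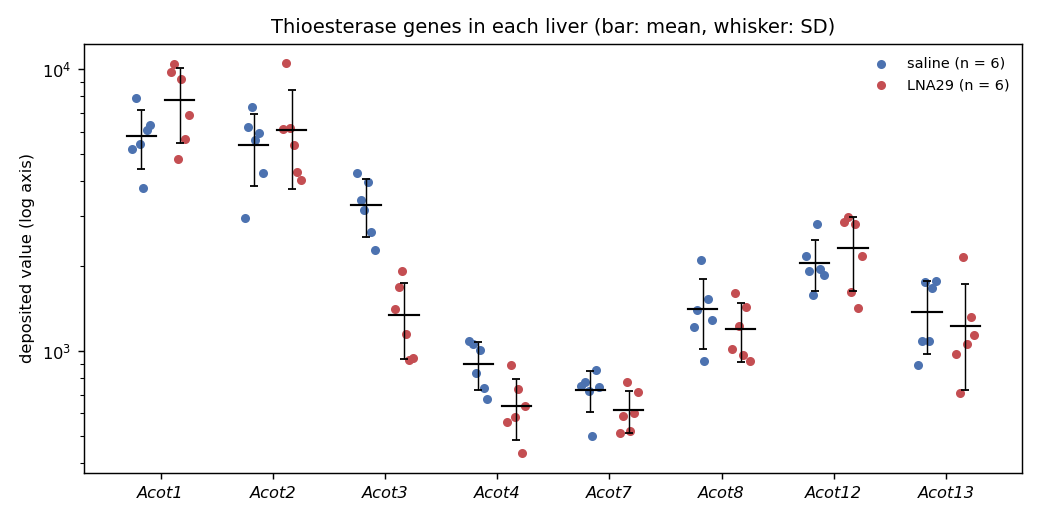
Deposited value of 8 thioesterase genes in each of 6 saline-treated (blue) and 6 LNA29-treated (red) livers, on a log axis, with the mean as a bar and the SD as a whisker. The points of Acot3 do not overlap between the groups (2284 to 4272 against 929.2 to 1925), while those of the other 7 genes do.

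The more abundant type I genes, Acot1 and Acot2, had higher means in LNA29-treated livers, with differences that did not pass the test. Acot1, the cytosolic long-chain enzyme, had a lowest, median and highest value of 3786, 5741 and 7902 in saline-treated livers. In LNA29-treated livers these were 4812, 8016 and 10443, and the groups overlapped. The difference was 0.40 on the log2 scale (SE 0.21, 95% interval -0.03 to 0.84, adjusted p = 0.672 by limma, exact permutation p = 0.110, two-sided). Acot2 encodes the mitochondrial enzyme of the cluster. Its value was 5385 ± 1545 in saline-treated and 6069 ± 2327 in LNA29-treated livers (n = 6 each), a difference of 0.16 (95% interval -0.34 to 0.65, limma adjusted p = 0.927).

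Acot4, a peroxisomal thioesterase with activity towards succinyl-CoA, had values in the direction of Acot3 at a smaller size. In saline-treated livers its lowest, median and highest values were 672.6, 920.3 and 1085. In LNA29-treated livers they were 432.6, 610.9 and 892.0, so that the groups overlapped. The log2 fold change was -0.51 (SE 0.20, 95% interval -0.92 to -0.09). The unadjusted limma p was 0.0194 and the exact permutation p was 0.0238 (two-sided), which was not adjusted. The limma p did not hold after adjustment over 12486 genes (adjusted p = 0.487, between 0.199 and 0.753 over 21 alternatives). An unadjusted p under 0.05 was seen for 7.91% of all genes tested, and for 5.97% in this direction.

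**Figure D2:**
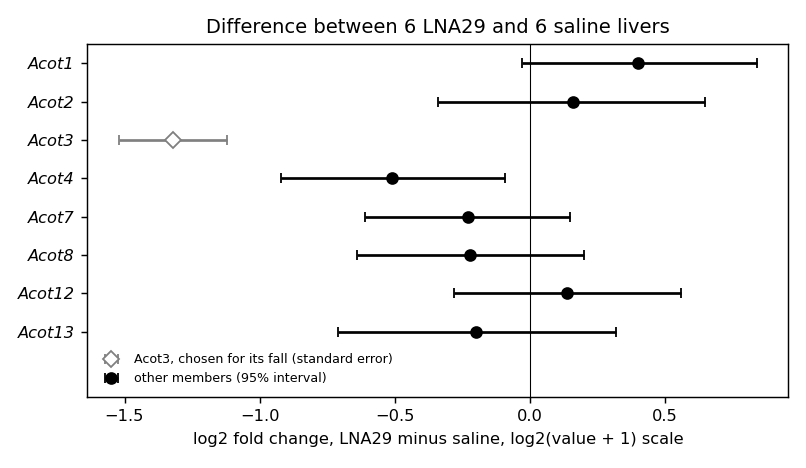
Log2 fold change (LNA29 minus saline, 6 livers each) on the log2(value + 1) scale, with 95% intervals from limma for 7 members and the standard error for Acot3, the open diamond, which was chosen for this difference. Of the 7 others, the interval of Acot4 (-0.92 to -0.09) leaves out 0.

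Summed over the cluster, the signal was mostly that of Acot1 and Acot2. The sum of Acot1, Acot2, Acot4 and Acot5 was 12066 ± 2188 in saline-treated and 14489 ± 4298 in LNA29-treated livers (log2 difference 0.23, SE 0.20, exact permutation p = 0.258, n = 6 each). With Acot3 added, the sums were 15360.4 ± 2017 and 15828 ± 4483, a log2 difference of 0.01 (SE 0.18). The summed values were not divided by transcript length, unlike the levels per kb above, so the shares that follow are of scaled reads. Acot3 made up 21.8% ± 6.26 of the sum in the saline group, with a range of 16.9% to 31.6%. In the LNA29 group it made up 8.69% ± 2.78, with a range of 6.97% to 14.3%.

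**Figure D3:**
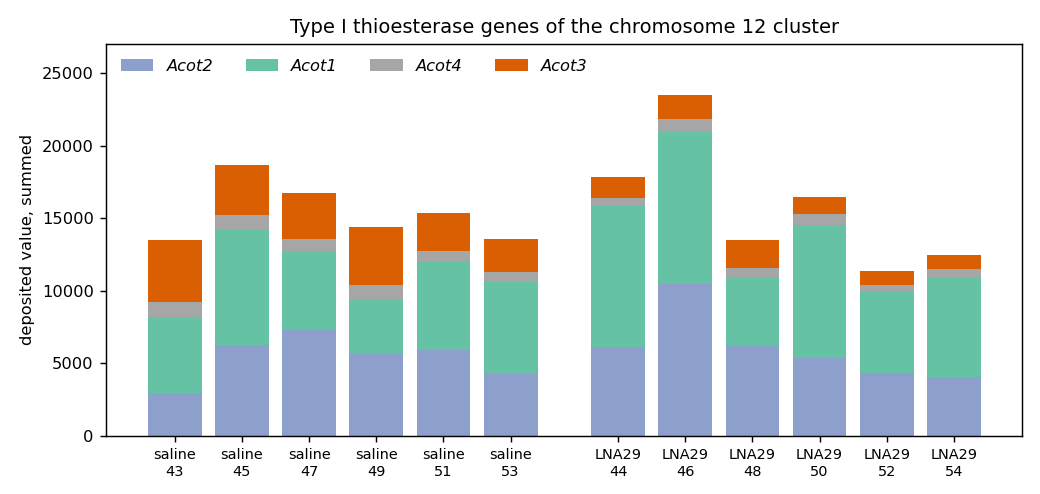
Deposited values of Acot2, Acot1, Acot4 and Acot3 stacked for each liver (Acot5 is too low to be seen), with the mouse number under each bar. The orange part, Acot3, takes 16.9% to 31.6% of the bar in the saline-treated livers and 6.97% to 14.3% in the LNA29-treated livers.

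The cluster's genes are near copies, which touches how reads were assigned among them. On GRCm38 the transcripts used here lie on chromosome 12 on the plus strand, with Acot2 from 83987861 to 83993873, Acot1 from 84009490 to 84018371, Acot4 from 84038379 to 84048601, Acot3 from 84052151 to 84060402 and Acot5 from 84069325 to 84076019. Acot1 and Acot2 were identical at 95.5% of aligned coding bases, Acot3 and Acot1 at 84.0%, Acot3 and Acot5 at 85.4%, and Acot3 and Acot4 at 74.2%. An aligned stretch of 60 coding bases is shown for each gene, with capitals where a gene differs from Acot1. It was picked among stretches where Acot1 and Acot2 are identical, as the one where Acot3 differs most from Acot1. It therefore does not stand for the whole coding part.
Acot1: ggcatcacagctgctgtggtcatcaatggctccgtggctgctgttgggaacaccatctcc
Acot2: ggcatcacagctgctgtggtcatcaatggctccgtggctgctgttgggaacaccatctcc
Acot3: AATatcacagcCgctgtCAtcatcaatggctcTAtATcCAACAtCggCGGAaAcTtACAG
Acot4: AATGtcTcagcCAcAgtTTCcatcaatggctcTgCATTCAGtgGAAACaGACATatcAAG
Acot5: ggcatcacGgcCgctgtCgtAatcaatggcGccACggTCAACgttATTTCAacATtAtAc
By that choice Acot2 did not differ from Acot1 in this stretch and Acot3 differed much, at 26 of 60 bases. Acot4 differed at 32 of 60 bases. Over the longest transcripts, 21.9% of the windows of 100 bases in Acot1 and 17.1% of those in Acot2 occurred in another gene of the table. The share was 4.44% in Acot3 and 0.360% in Acot4, and no window of Acot7, Acot8, Acot12 or Acot13 was shared. Estimated reads were whole numbers (within 0.02) in all 12 livers for Acot7, Acot8 and Acot13, in 9 for Acot12, in 4 for Acot3, in 1 each for Acot2 and Acot4 and in 0 for Acot1. The division of reads between Acot1 and Acot2 is therefore uncertain, as is that among the rest of the cluster. Acot4 had whole numbers in 1 liver, as Acot2 did, though 0.360% of its windows were shared against 17.1%. Whole numbers tell whether reads were divided, and not how many, so they do not rank this uncertainty. The part of this division in the values of the cluster's genes was not tested.

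None of the type II genes passed the test. Acot8, the broad peroxisomal thioesterase, was 1408 ± 397.3 in saline-treated and 1194 ± 280.5 in LNA29-treated livers (log2 fold change -0.22, 95% interval -0.64 to 0.20, limma adjusted p = 0.853). Acot7, a cytosolic long-chain enzyme best known from brain, was 725.1 ± 120.3 and 617.6 ± 105.4 (-0.23, 95% interval -0.61 to 0.15, limma adjusted p = 0.817). Both pairs of groups overlapped.

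The differences of Acot12 and Acot13 did not pass either. Acot12, the cytosolic acetyl-CoA hydrolase of liver, was 2050.1 ± 417.3 and 2312 ± 678.2 (0.14, 95% interval -0.28 to 0.56, limma adjusted p = 0.925). Acot13, also known as Them2, was 1373 ± 397.5 and 1224 ± 496.8 (-0.20, 95% interval -0.71 to 0.32, limma adjusted p = 0.904). Without LNA29 replicate 46 these differences were 0.054 and -0.057, that of Acot12 was 0.27 without LNA29 replicate 52, and that of Acot13 was -0.38 without LNA29 replicate 48. Over the 7 tested members, 4 were lower and 3 higher in LNA29-treated livers, 0 had an adjusted p under 0.05, and 1, Acot4, had an unadjusted p under 0.05. All 12486 genes had a median log2 fold change of -0.093, with 61.4% lower. The 7 intervals reach at most 0.92 on the log2 scale below 0 and at most 0.84 above it.

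Members were also compared from liver to liver, as log2 deviations from the group mean, which the choice of Acot3 did not use. Of 28 pairs among 8 genes, 0 passed after adjustment over the pairs. By Pearson's r, 5 had an unadjusted permutation p under 0.05, and 2 did with the length trend of the livers removed. For Acot3 with Acot4 over the 12 livers the correlation was positive but did not pass (Pearson's r = 0.62, permutation p = 0.0461, adjusted p = 0.258; Spearman's rho = 0.60, permutation p = 0.0554, adjusted p = 0.358). Without the 2 livers farthest from the median of Acot3, r was 0.72. Within the groups r was 0.95 in the saline and 0.41 in the LNA29 livers. Values of this size within a group were also seen in other pairs, and could differ in sign between the groups. For Acot1 with Acot12, r was -0.67 in the saline and 0.95 in the LNA29 livers. Acot4 had a similar correlation with Acot12 over the 12 livers (Pearson's r = 0.66, permutation p = 0.0350, adjusted p = 0.245). The correlation of Acot3 with Acot4 is thus not particular to these genes. Acot3 with Acot1 had r = -0.14 (permutation p = 0.687, adjusted p = 0.775), and Acot1 with Acot2, which share the most sequence, had r = 0.35 (permutation p = 0.290, adjusted p = 0.647).

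The pair with the lowest p by Pearson's r was Acot12 with Acot13 (Pearson's r = -0.73, permutation p = 0.00835, adjusted p = 0.234; Spearman's rho = -0.73, permutation p = 0.00896, adjusted p = 0.125). Without the 2 farthest livers r was -0.82. By Spearman's rho it was Acot4 with Acot13 (rho = -0.78, permutation p = 0.00852, adjusted p = 0.125; Pearson's r = -0.71, permutation p = 0.0188, adjusted p = 0.245), with r = -0.69 without the 2 farthest livers and -0.61 with the length trend removed. Livers also differed in how their values ran with transcript length, and Acot12, with a transcript of 3058 bases, and Acot13, with one of 721 bases, ran with that trend in opposite directions (r = 0.74 and r = -0.74 over 12 livers, given as a description). With the trend removed by regression, r between Acot12 and Acot13 was -0.40, and for Acot3 with Acot4 it was 0.54.

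**Figure D4:**
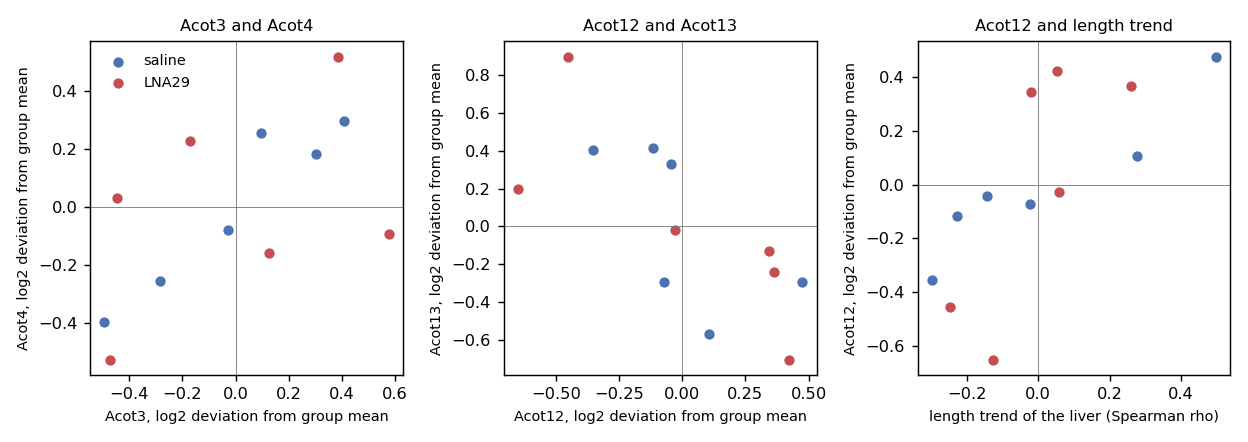
Log2 deviation of each liver from its group mean, for Acot4 against Acot3, Acot13 against Acot12, and Acot12 against the liver's transcript-length trend (Spearman's rho over genes), with saline-treated livers in blue and LNA29-treated livers in red. The points slope upward for Acot3 and Acot4 (r = 0.62), downward for Acot12 and Acot13 (r = -0.73) and upward for Acot12 and the length trend (r = 0.74).

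The genes whose deviations were most like those of Acot3 over the 12 livers, among 3115 genes with a mean of at least 1000, were Nqo2 (r = 0.87), Lasp1 (r = 0.86), Ces1f (r = 0.83), Eif2s3x (r = 0.79) and Cd36 (r = 0.77). Nqo2 encodes a quinone reductase, Ces1f a carboxylesterase and Cd36 a fatty acid transporter. The products of Lasp1 and Eif2s3x are not described here, and a shared function of the named genes was not tested. Between the groups, their log2 fold changes lay between -0.58 (Ces1f) and 0.15 (Eif2s3x), as set against -1.32 for Acot3. Among the members in this set of genes, Acot2 ranked 294, Acot12 333, Acot8 1082, Acot1 1595 and Acot13 2080 in likeness to Acot3. These correlations share the same 12 libraries and are given as a description. The named genes were picked as the highest of 3115 correlations. How high r reaches by chance among so many was not tested.

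Promoters were read from RefSeq (GRCm38.p6, 250 bases before to 50 after the start) for 9 of the 10 members, all but Acot13. The letters AGGTCA, the core element of nuclear receptors such as PPAR-alpha, were searched on both strands and occurred in 4 of the 9 (Acot3, Acot4, Acot5 and Acot12) and in 18.1% of 27025 genes. Acot3 is the gene this account turns on and Acot4 is its neighbour in the cluster. Counted from the start, the letters begin at 19 in Acot3, after the start, and at -13 in Acot4, before it. The windows of these 2 genes are shown with the reverse complement of the element in capitals.
Acot3, chr12:84052150-84052179, plus strand: gttattagctctTGACCTtgtctgtctgct
Acot4, chr12:84038354-84038383, plus strand: agccccgaagcaTGACCTttggccggtctg
The direct repeat of AGGTCA with 1 base between the copies, which PPAR-alpha binds with its partner RXR, was searched letter for letter. It was in none of the 9 windows and in 0.0481% of all promoters. At that rarity, its absence from 9 windows does not set these genes apart, and inexact copies were not counted. The D-box TTATGTAA and the STAT5 element TTCNNNGAA were also in none of the 9, as set against 1.11% and 9.55% of all promoters. The C/EBP element TTGCNNCAA was in Acot7 (2.38% of all), and CCAAT was in 7 of the 9 (41.1% of all).

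The other enzymes and carriers of acyl-CoA were examined as lists around the thioesterases, whose counts stand beside 61.4% lower and 5.97% lower with an unadjusted p under 0.05 over all genes tested. Among 9 other thioesterases and their partner proteins with a fold change, 2 were higher and 7 lower in LNA29-treated livers, with a median of -0.19 and 0 past the adjusted test (1 unadjusted in each direction, limma). Them4, a mitochondrial thioesterase, was 435.6 ± 64.98 in saline-treated and 665.6 ± 163.3 in LNA29-treated livers (log2 fold change 0.59, SE 0.19, limma adjusted p = 0.337). Pctp, the phosphatidylcholine transfer protein that binds Acot13, was 8374 ± 849.6 and 6502 ± 2526 (-0.45, SE 0.21, limma adjusted p = 0.621). Acot11, which carries a lipid-binding START domain, was between 82.54 and 312.5 in saline-treated and between 18.87 and 243.9 in LNA29-treated livers (-0.58, SE 0.55, limma adjusted p = 0.868), with a difference of -0.13 without LNA29 replicate 48 and of -0.86 without LNA29 replicate 46. Acot6 and Acot10 had at most 3 reads in every liver.

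The acyl-CoA synthetases, which catalyse the reverse step, held the single gene of these surrounding lists to pass the adjusted test. Acsm1, a mitochondrial medium-chain synthetase, had a lowest, median and highest value of 4809.5, 5834 and 7404 in saline-treated livers and of 2659, 3443 and 4245 in LNA29-treated livers. Its groups did not overlap, and it fell by 0.77 on the log2 scale (SE 0.15, limma adjusted p = 0.0468). The adjusted p stayed under 0.05 in 9 of 21 alternatives and lay between 0.00331 and 0.223. Among the livers left out in turn, the call was kept without saline replicate 45 or 49 or LNA29 replicate 48 and was lost without any of the others, at adjusted p-values up to 0.136 (limma). Of 15 synthetases, 4 were higher and 11 lower, with a median of -0.30 and 3 unadjusted calls, all lower, beside 61.4% lower and 5.97% called lower over all genes. The median was -0.15 without LNA29 replicate 48, -0.16 without saline replicate 49, -0.20 without saline replicate 43 or LNA29 replicate 50 and -0.17 among synthetases with a mean of at least 100. Acsf2 was 10216 ± 1542 and 7236 ± 1565 (-0.51, SE 0.15, limma adjusted p = 0.265), and Acsl1, the main long-chain synthetase of liver, 22559.7 ± 9001 and 16809.5 ± 5068 (-0.39, SE 0.25, limma adjusted p = 0.771).

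Peroxisomal genes gave 4 higher and 16 lower of 20, with a median of -0.14 and 0 adjusted calls by limma (2 unadjusted, both lower, beside 5.97% over all genes, of which 61.4% were lower). The median was -0.046 without LNA29 replicate 48, -0.085 without saline replicate 43 and -0.087 without LNA29 replicate 52. Abcd2, a transporter of the peroxisomal membrane, was 1013 ± 321.5 in saline-treated and 676.1 ± 187.8 in LNA29-treated livers (log2 fold change -0.57, SE 0.22, limma adjusted p = 0.488). Ehhadh, the bifunctional enzyme of peroxisomal oxidation, ranged from 13404 to 55390 in the saline group and from 15623 to 110122 in the LNA29 group (0.73, SE 0.42, limma adjusted p = 0.726).

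PPAR-alpha and its target genes did not lean one way. Of 23, 10 were higher and 13 lower, with a median of -0.04, which turned to 0.025 with TMM scaling, 0.004 with a common median, 0.007 with array weights, 0.002 without saline replicate 49 and 0.058 without LNA29 replicate 48, and 0 passed the adjusted test by limma (3 unadjusted). Fgf21, a fasting hormone, was 264.8 ± 110.3 in saline-treated and 588.0 ± 391.5 in LNA29-treated livers (1.06, SE 0.38, limma adjusted p = 0.432). Vnn1, the pantetheinase that releases a precursor of coenzyme A, was 1843 ± 490.4 and 917.6 ± 266.9 (-1.01, SE 0.22, limma adjusted p = 0.0834, with 2 of 21 alternatives under 0.05).

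Vnn1 also belongs to the genes of coenzyme A synthesis and breakdown, where 2 were higher and 13 lower of 15, with a median of -0.17 and 0 adjusted calls by limma (2 unadjusted, both lower). Ppcdc, which decarboxylates the intermediate phosphopantothenoylcysteine, was 334.1 ± 53.30 and 225.9 ± 85.50 (-0.64, SE 0.27, limma adjusted p = 0.548), and the pantothenate kinase Pank2 was 348.1 ± 98.81 and 464.3 ± 133.3 (0.39, SE 0.26, limma adjusted p = 0.779). Of 7 acyl-CoA binding proteins, 2 were higher and 5 lower, with a median of -0.08 (-0.007 without saline replicate 47, -0.15 without LNA29 replicate 46) and 0 calls by limma, adjusted or not. Fabp1, the liver fatty acid binding protein, ranged from 183190 to 639596 in saline-treated and from 148534 to 332659 in LNA29-treated livers (-0.69, SE 0.33, limma adjusted p = 0.634). Acbd4 and Acbd3 had log2 fold changes of -0.32 (SE 0.21) and 0.34 (SE 0.44), and that of Acbd3 was 0.021 without saline replicate 47 and 0.67 without saline replicate 49.

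**Figure D5:**
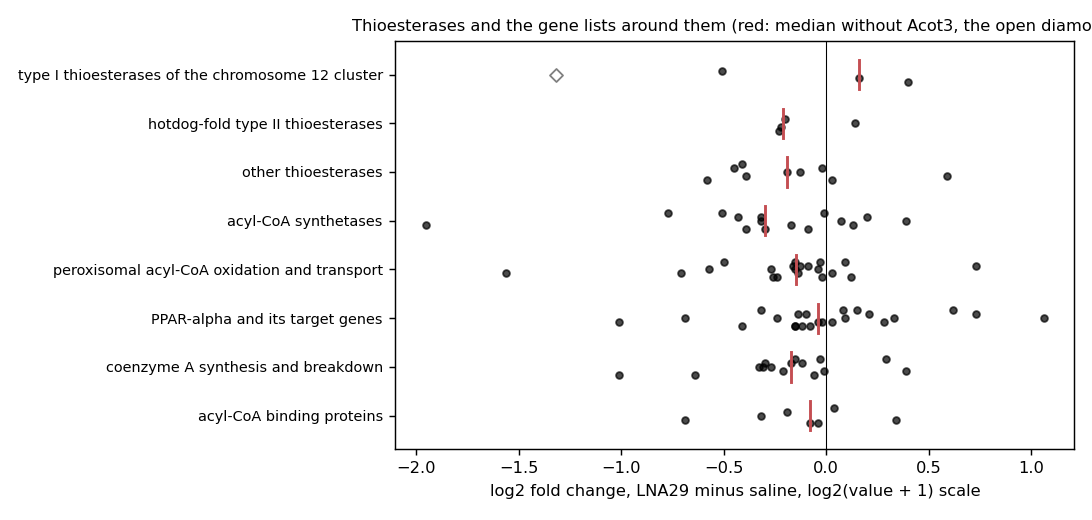
Log2 fold change (LNA29 minus saline, log2(value + 1) scale) of each gene above the floor in 8 lists, with the median in red computed without Acot3, which is drawn as an open diamond. Medians of the 6 lists around the thioesterases lie between -0.30 (acyl-CoA synthetases) and -0.04 (PPAR-alpha and its target genes), beside -0.093 over all genes.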

How the data were processed

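Liver mRNA of 12 mice was sequenced as single reads. The authors mapped reads with MapSplice2 and estimated reads per gene with RSEM (mm9, per the submitters' processing notes; versions not given in the sources used here). They deposited a signal per gene and liver, scaled to the library's upper quartile. The scaling and the worth of 1 read were inferred from the values. The authors' group means, fold changes and p-values, and 3 unnamed value columns, were not used.

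Values were compared as log2(value + 1) in limma 3.58.1 under R 4.3.3, with an intensity trend in the prior variance, for the 12486 genes whose mean was 10 or more. Adjusted p-values follow Benjamini and Hochberg, and 0.05 was the limit. Single values were tested by exact permutation over livers, and pairs of members by permutation. The named genes were all members, the genes of each list with an adjusted p under 0.05 or among the 3 largest differences (mean of at least 100), and the 5 genes most like Acot3. The values of 1 gene that this rule names are not reported here. Members and lists were chosen with earlier results of these data known. The fit was tested on simulated data. Sequences came from RefSeq and GENCODE M21, on GRCm38, not the authors' build. The marker lists served as a check of the tissue: median log2 fold changes were 0.11 for hepatocyte, -0.22 for stellate cell and fibroblast, -0.39 for Kupffer cell and leukocyte (1 of 8 with an unadjusted p under 0.05, higher), -0.22 for endothelial, 0.13 for bile duct and 0.04 for blood cell markers, with 0 adjusted calls by limma.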

Additional observations from a re-analysis of the deposited data

Results flagged for a closer look

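In groups of 6 livers, the highest and lowest values were examined for their distance from the rest, over 20 groups, of which chance flags about 1. Acot7 was low in saline replicate 49, at 8.969 on the log2 scale (deposited value 500.0), with a gap of 0.673 of the group's range. The share of the cluster's sum taken by Acot3 was high in LNA29 replicate 48, at 14.3%, with a gap of 0.830 of the range, and this liver also had the highest value of Acot3 in its group.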

How the results depend on the processing

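Acot3 had a log2 fold change between -1.44 and -1.23 when each liver was left out in turn, Acot4 between -0.61 and -0.40, Acot1 between 0.29 and 0.53, Acot7 between -0.33 and -0.18, and Acot8 between -0.34 (without saline replicate 49) and -0.10 (without saline replicate 47). The sum of Acot1, Acot2, Acot4 and Acot5 went from 0.11 without LNA29 replicate 46 to 0.32 without LNA29 replicate 52. Acot2 turned to -0.006 without saline replicate 43 and to -0.017 without LNA29 replicate 46, within a range of -0.017 to 0.26. No other member changed direction, and none of the 7 tested members had an adjusted p under 0.05 under any of 21 alternatives. The count of genes with an adjusted p under 0.05, 20 (9 higher, 11 lower), was 10 (4 lower) with a common median, 58 (18 higher, 40 lower) with array weights and 126 (37 higher, 89 lower) with the length trend of each liver as a covariate, which was chosen after seeing the data. With TMM scaling 5 were lower. Leaving out 1 liver gave 1 to 29 genes, 1 to 9 higher and 0 to 20 lower, with 1 left without saline replicate 43, LNA29 replicate 50 or LNA29 replicate 54, 3 without saline replicate 51, 7 without saline replicate 53, 9 without LNA29 replicate 46, 10 without LNA29 replicate 52, 11 without saline replicate 47 and 29 without LNA29 replicate 48. The causes were not tested. The count tests planned as alternatives were not run, because the deposited values are fractional estimates. No paired analysis was possible because the mouse numbers of the groups differ. In the LNA29 group Acot3 had 49 to 113 reads per liver and Acot4 had 23 to 47. The log2 fold changes of both had an SE of 0.20, beside 0.21 for Acot1 at 255 to 778 reads. The part of counting error in these was not tested.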
